A study of Homo sapiens with 4 samples.

Results

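SRRM2, SON and SRRM1 encode large, serine- and arginine-rich proteins of the nuclear speckle. They are 3 of the 14416 genes that carried at least 1 crosslink site in the iCLIP lists of PDCD4 and of an isotype control antibody (IgG). They were chosen by name: every listed site whose gene label held one of these symbols exactly was taken, whatever its score. This gave 311 of the 158922 sites in the PDCD4 list and 131 of the 111361 sites in the IgG list.

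Both immunoprecipitations were made from UV-irradiated MCF10A cells of wild-type (WT) genotype, a non-transformed breast epithelial line grown in culture. In the labels the antibody was the only difference between the groups. Each antibody had 2 replicates, which were merged into 1 list before deposit. PDCD4 is a tumour suppressor that binds RNA and translation factors. In iCLIP (crosslinking and immunoprecipitation read at single-nucleotide resolution), RNA is fixed to protein with UV light and pulled down with an antibody. Reverse transcription then stops next to the crosslinked nucleotide, so that each distinct cDNA marks 1 contact, and the score of a site was the number of such cDNAs.

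Nuclear speckles are membrane-less bodies that store splicing factors beside active genes. SON and SRRM2 form the core that holds a speckle together, and the other components join them through low-complexity stretches rich in serine and arginine. SRRM1 is a splicing coactivator that works with SRRM2 and also links splicing to 3′ end formation. In SON and SRRM2 most of the protein is written in a single, unusually long exon.

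Of the 17 PDCD4 sites of the 3 genes with a score above 5, 12 are given below as 29-nt windows of the GRCh38 plus strand, written as DNA, with the listed crosslink nucleotide in capitals. They are all such sites in the long exon 11 of SRRM2, its short exon 12, exon 15 of SRRM1, and exon 6 of SON. The others lay in SRRM2, in exons 3 and 4, intron 11 and the 3′ untranslated region, with scores of 6 or 7.
SRRM2 exon 11, chr16:2762808-2762836, score 6: gtctctctcttcacCacggtccaaagcaa
SRRM2 exon 11, chr16:2763283-2763311, score 6: gtgaaggcaataatAtcaccaagacaaag
SRRM2 exon 11, chr16:2763493-2763521, score 8: cactcagggtctatTtcaccataccccaa
SRRM2 exon 11, chr16:2763672-2763700, score 6: ctattttggtgtctCatctctgcaactga
SRRM2 exon 11, chr16:2765084-2765112, score 6: cagaatcatcagttGatcagaaaactgtg
SRRM2 exon 11, chr16:2766087-2766115, score 6: ctcacgcacatcacCagccccgtggaaac
SRRM2 exon 12, chr16:2769091-2769119, score 8: tccagttccagctcCtcctcttcatcttc
SRRM2 exon 12, chr16:2769154-2769182, score 6: tcttcctcttcttcTtcttcctcctcatc
SRRM1 exon 15, chr1:24669337-24669365, score 6: cgttcaccttcattAtcatccaagcatag
SRRM1 exon 15, chr1:24669360-24669388, score 6: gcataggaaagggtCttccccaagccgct
SRRM1 exon 15, chr1:24669396-24669424, score 9: ggaggcccgatcacCacaaccaaacaaac
SON exon 6, chr21:33559582-33559610, score 7: tttagattgctgcaGcaaaaccaactcca
The windows of SRRM2 exon 12 are runs of thymine and cytosine from an exon in which 45 of 95 codons (47.4%) are for serine, compared with 23.7% in exon 11. Of the 6 windows of exon 11, 4 hold the letters TCACCA, as does 1 of the 3 windows of SRRM1 exon 15.

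The PDCD4 list held 409308 cDNAs and the IgG list 276139, so each gene is given as cDNAs per 10000 of its own list. Neither list measures transcript level, and with 1 merged list per antibody there was no spread between replicates. The intervals below are therefore 95% intervals of counting error alone (exact binomial for ratios, Wilson for shares), and no test of PDCD4 against IgG was possible. The files list only sites that a peak caller kept, so an absent site is not a count of 0. Over all genes, 20.9% of PDCD4 sites and 9.74% of IgG sites lay in coding sequence.

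SRRM2 (ENSG00000167978, chromosome 16, plus strand) carried the most sites of the 3 genes. The PDCD4 list held 203 SRRM2 sites with 583 cDNAs, or 14.2 per 10000. The IgG list held 64 sites with 174 cDNAs, or 6.30 per 10000. SRRM2 thus took a 2.25-fold larger share of the PDCD4 list (interval 1.91 to 2.69, log2 ratio 1.17). By summed cDNAs, not corrected for length, it ranked 29 among the 14416 genes in PDCD4 and 120 in IgG. By the ratio it ranked 977 of the 7305 genes with at least 20 cDNAs over both lists, so its place near the top of the PDCD4 list came with a high IgG count.

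SON (ENSG00000159140, chromosome 21, plus strand) had 70 PDCD4 sites with 198 cDNAs, or 4.84 per 10000. The IgG list had 37 SON sites with 86 cDNAs, or 3.11 per 10000. The log2 ratio was 0.63 (interval 0.26 to 1.02), a PDCD4 share 1.54 times that of IgG. SRRM1 (ENSG00000133226, chromosome 1, plus strand) had 38 PDCD4 sites with 122 cDNAs, or 2.98 per 10000, against 30 sites with 67 cDNAs, or 2.43 per 10000. Its log2 ratio of 0.29 had an interval that held 0 (-0.14 to 0.75), so for the whole SRRM1 gene a difference between the lists was not detectable at this depth.

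Per kilobase of spliced transcript, the order of SON and SRRM1 turned. SRRM2 had 1.57 cDNAs per 10000 per kb in PDCD4, SRRM1 had 0.776 and SON had 0.576. In IgG the same values were 0.697, 0.632 and 0.371. SRRM2 and SRRM1 were thus close to each other in the IgG list and apart in the PDCD4 list. The log2 ratio of SRRM2 was above that of SON by 0.54 (interval 0.10 to 0.98) and above that of SRRM1 by 0.88 (0.39 to 1.37), while SON and SRRM1 differed by 0.34 with an interval that held 0 (-0.23 to 0.90).

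Of the 3 genes, 1 was past a 2-fold higher share in PDCD4, and all 3 had a log2 ratio above 0. Among the 7305 genes with at least 20 cDNAs, 16.4% were past the 2-fold ratio in this direction and 46.2% were above 0. The median log2 ratio over those genes was -0.10, with quartiles of -0.71 and 0.62, so SON lay at about the upper quartile and SRRM1 between the median and it.

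Sites with a score above 5 were few. SRRM2 had 13 such sites in PDCD4 with 83 cDNAs, SRRM1 had 3 with 21 cDNAs, and SON had 1 with 7 cDNAs. No IgG site of the 3 genes scored above 5: the highest IgG scores were 5 in SRRM2 and 4 in both SON and SRRM1. In the whole lists, 1.48% of PDCD4 sites and 0.690% of IgG sites scored above 5, so that with 64, 37 and 30 IgG sites in SRRM2, SON and SRRM1 less than 1 such site per gene would follow from the IgG share. The single SON site does not separate the lists. A PDCD4 site above 5 occurred in 13.4% of the genes with at least 20 cDNAs, and an IgG site above 5 in 7.68%. Just at the threshold, SRRM2 had 15 PDCD4 sites with a score of 5 and 10 with a score of 6. No site of the 3 genes reached a score above 10, and the highest in the whole PDCD4 list was 87.

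**Figure D1:**
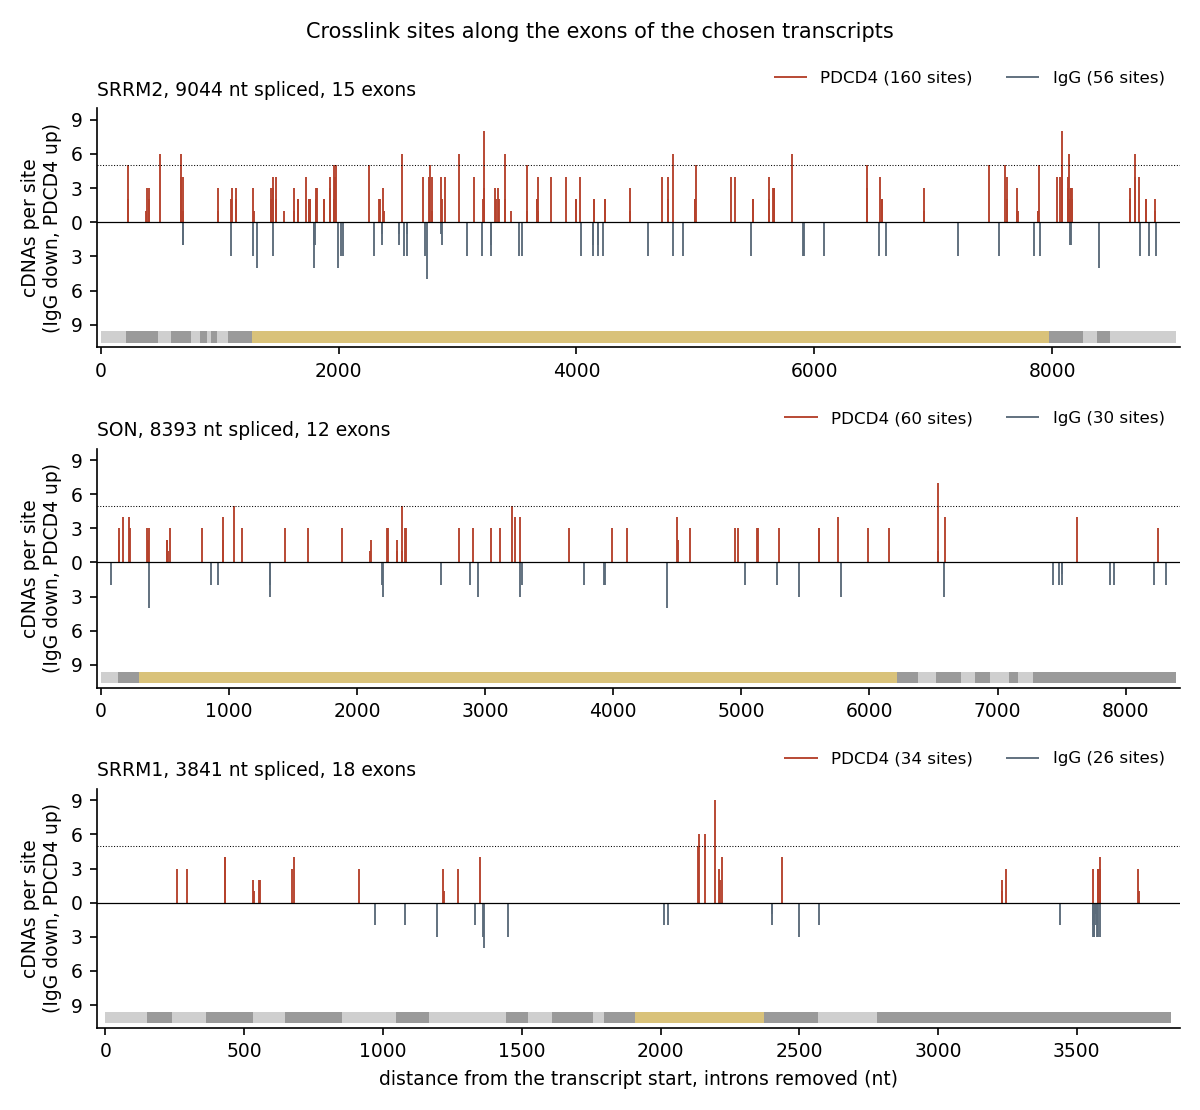
Listed crosslink sites along the spliced transcript with the longest coding sequence of each gene. The x axis is the distance from the transcript start in nt with introns removed, the height of a line is the cDNA count of the site (PDCD4 up, IgG down), the boxes mark exons with the longest coding exon in gold, and the dotted line is a score of 5. The sites above the dotted line are all PDCD4 sites, and they are spread over SRRM2 but lie close together in SRRM1.

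The sites of each gene were then placed by part of the gene. Most PDCD4 sites of each gene lay in coding sequence, where a position counted as coding if any transcript codes there. With introns placed first, 12.9% of the SON sites were coding. In SRRM2, 149 of 203 PDCD4 sites were coding (73.4%, interval 66.9 to 79.0), against 53 of 64 IgG sites (82.8%, 71.8 to 90.1). In SON, 58 of 70 PDCD4 sites were coding (82.9%, 72.4 to 89.9), against 24 of 37 for IgG (64.9%, 48.8 to 78.2). In SRRM1 the shares were 24 of 38 (63.2%, 47.3 to 76.6) and 13 of 30 (43.3%, 27.4 to 60.8). The intervals of PDCD4 and IgG overlapped in each gene.

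Within coding sequence the intervals of the 3 genes overlapped. The log2 ratio of coding cDNAs was 1.01 in SRRM2 (430 against 143 cDNAs, interval 0.74 to 1.30), 0.94 in SON (170 against 59, 0.52 to 1.41) and 0.84 in SRRM1 (84 against 31, 0.26 to 1.51). Without SRRM1 sites whose next 30 nt also occur in another gene, a comparison added after the data had been seen, the SRRM1 value was 0.58 (59 against 26 cDNAs) and its interval held 0 (-0.07 to 1.34). Outside coding sequence they parted. SRRM2 had 153 PDCD4 cDNAs against 31 for IgG there, a log2 ratio of 1.70 (1.17 to 2.34). SON had 28 against 27 (-0.52, -1.33 to 0.30) and SRRM1 38 against 36 (-0.49, -1.19 to 0.21). The lower whole-gene ratios of SON and SRRM1 thus went with cDNAs outside the coding sequence that were nearly as many in IgG as in PDCD4. In both genes the median site score was 2 in IgG and 3 in PDCD4, so weaker sites were listed for IgG. The part of peak calling in these ratios was not tested.

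**Figure D2:**
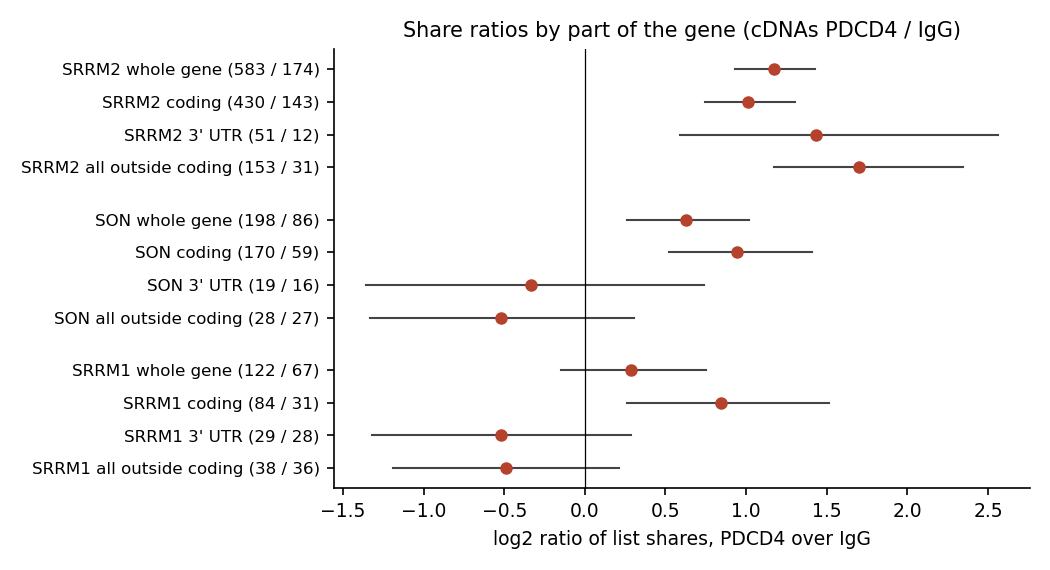
Log2 ratio of the PDCD4 share over the IgG share for the whole gene and its parts, with the cDNAs of PDCD4 and IgG in brackets. Points are the ratios with 1 cDNA added to each sum and lines are 95% intervals of counting error, and the coding ratios of the 3 genes lie between 0.84 and 1.01 (SRRM1 0.58, with an interval that held 0, without sites shared in sequence with other genes) while only SRRM2 stays above 0 outside coding sequence.

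In positions classed as 3′ untranslated region in any transcript, SRRM2 had 51 PDCD4 and 12 IgG cDNAs (log2 ratio 1.43). SON had 19 and 16 (-0.33) and SRRM1 had 29 and 28 (-0.52). Of the 20 SRRM2 PDCD4 sites in this class, 11 lay in introns of the transcript with the longest coding sequence. The same held for 6 of 8 in SON and 1 of 11 in SRRM1. The last exon of SRRM2 held 26 PDCD4 and 9 IgG cDNAs. Its log2 ratio of 0.87 had an interval that held 0 (-0.18 to 2.24), so this exon alone did not separate the lists. In the last exon of SON, most of which is 3′ untranslated region, 2 PDCD4 sites with 7 cDNAs stood against 8 IgG sites with 15 cDNAs, and the interval of the log2 ratio lay below 0 (-3.20 to -0.29). In the last exon of SRRM1, 12 of its 13 IgG sites fell within 25 nt (chr1:24672961-24672985) and carried 26 cDNAs, and a group of 5 PDCD4 sites with 16 cDNAs (chr1:24672960-24672987) overlapped this stretch. This was the largest group of IgG sites in the 3 genes.

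The coding exons of SRRM2 were dominated by exon 11 (chr16:2761561-2768261). It is 6701 nt long and makes up 81.1% of the 8259-nt coding sequence. It held 118 of the 149 PDCD4 coding sites (79.2%, interval 72.0 to 84.9) with 333 cDNAs, and 47 of the 53 IgG coding sites with 128 cDNAs. The density of PDCD4 sites was 17.6 per kb in exon 11 and 19.9 per kb in the other coding exons, a log2 ratio of -0.18 with an interval that held 0 (-0.76 to 0.44). The last 60 nt of each exon held no site in either list. With them left out of sites and lengths, the log2 ratio was -1.01 (-1.59 to -0.39). Exon 11 then held fewer PDCD4 sites per kb than the other coding exons pooled. Of the sites in those other exons, 16 lay in exon 12 alone, which is 288 nt long (55.6 per kb), and 11 of these lay within 34 nt. The interval takes such neighbouring sites as independent. The density was compared neither with exon 12 left out nor with neighbouring sites joined. The lower value therefore cannot be extended to the remaining exons or to groups of sites.

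SON exon 3 (chr21:33549476-33555391) is the counterpart: 5916 nt and 81.3% of the 7281-nt coding sequence. It held 49 of the 58 PDCD4 coding sites (84.5%, 73.1 to 91.6) with 141 cDNAs, and 20 of the 22 IgG sites in the coding exons of the same transcript with 50 cDNAs. Its density was 8.28 PDCD4 sites per kb against 6.59 in the other coding exons (log2 ratio 0.33, -0.71 to 1.54). With exon ends left out, the log2 ratio was -0.61 (-1.65 to 0.60), so both intervals held 0. The PDCD4 density in SRRM2 exon 11 was thus above that in SON exon 3, as it was for IgG, at 7.01 and 3.38 sites per kb. SRRM1 has no such exon: its longest coding exon, exon 15 (chr1:24669123-24669587), is 465 nt long.

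More PDCD4 sites were listed in the first part of both long exons than in the rest. Each site was counted singly here and the intervals take sites as independent, although many lay next to each other. When sites within 20 nt were joined, the 70 PDCD4 sites of SON formed 47 groups. Such groups were not compared along the exons, so an uneven spread is not shown for SON. In SRRM2 exon 11, 77 PDCD4 sites lay in the first 3350 nt and 41 in the rest, so that the first part held 65.3% (56.3 to 73.2). The IgG sites lay the same way, with 35 and 12 (74.5%, 60.5 to 84.7). In SON exon 3 the first 2958 nt held 32 of 49 PDCD4 sites (65.3%, 51.3 to 77.1) and 10 of 20 IgG sites (interval 29.9% to 70.1%). In both genes the first 500 nt of the exon had the most PDCD4 sites of any 500-nt bin, with 20 in SRRM2 and 9 in SON, against 3 and 1 IgG sites. By cDNAs the first bin of SON, with 20, was below the bin from 2501 to 3000 nt, with 22.

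**Figure D3:**
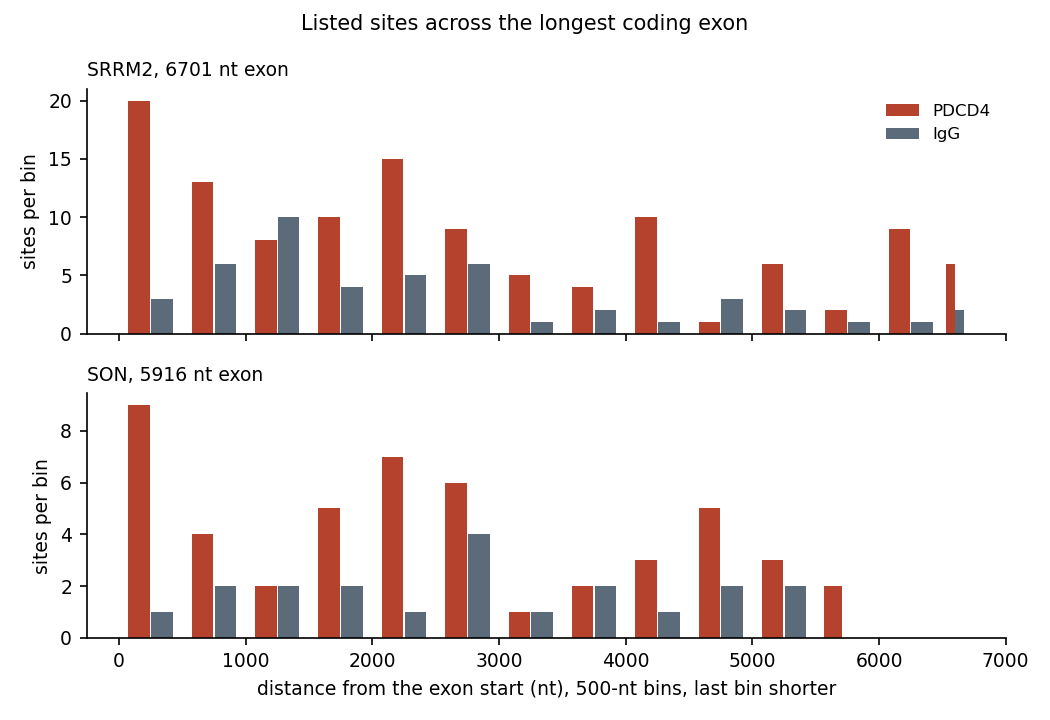
Number of listed sites in 500-nt bins along SRRM2 exon 11 and SON exon 3, by distance from the exon start in nt (the last bin is shorter). Bars are PDCD4 and IgG site counts, and the first bin is the fullest for PDCD4 in both exons with 20 and 9 sites.

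The serine- and arginine-rich reading frame was compared with the codons that the sites fell in. In SRRM2, 40.3% of the codons are for arginine or serine, and 75 of the 149 PDCD4 coding sites (50.3%, interval 42.4 to 58.3) lay in them. The IgG share was 27 of 53 (50.9%, 37.9 to 63.9). In SON such codons make up 20.4% and held 17 of 58 PDCD4 sites (29.3%, 19.2 to 42.0) and 7 of 22 IgG sites (31.8%). In SRRM1 they make up 32.4% and held 7 of 24 PDCD4 sites (29.2%, 14.9 to 49.2). The PDCD4 and IgG shares lay within 3 percentage points of each other in each gene.

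Serine codons took the larger part. In SRRM2, 56 PDCD4 sites were in serine codons and 19 in arginine codons, where these codons are 23.3% and 17.0% of the reading frame. The IgG sites were 26 and 1. In SON the numbers were 13 serine and 4 arginine sites for PDCD4, and 7 serine and no arginine sites for IgG. Serine codons mostly begin with thymine and cytosine, and the crosslinked nucleotide itself was a thymine in 37.9% and a cytosine in 33.4% of the 311 PDCD4 sites of the 3 genes. In the 131 IgG sites the shares were 38.9% and 35.1%, and over all PDCD4 coding sites they were 34.4% and 33.2%. The base after the site was a guanine in 3.86% of the PDCD4 sites, where all coding sites had 4.19%.

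The letters TCACCA, seen around several of the strongest sites, were then searched on the same strand in all 29-nt windows. This motif was chosen after the windows had been seen. It was present around 5 of the 14 coding PDCD4 sites above 5 in the 3 genes, 4 in SRRM2 and 1 in SRRM1. Over every coding site the share was 13 of 231 for PDCD4 (5.63%, 3.32 to 9.39) and 6 of 90 for IgG (6.67%, 3.09 to 13.8). Of all windows centred on a coding position of the 3 genes, 4.20% held it, but this reference differed by gene. In SRRM2 it was 6.39%, against 9 of 149 PDCD4 sites (6.04%) and 6 of 53 IgG sites (11.3%). In SRRM1 it was 6.96%, against 3 of 24 PDCD4 sites. In SON it was 0.66%, against 1 of 58 PDCD4 sites. No IgG site of SRRM1 or SON held the motif. Among all coding PDCD4 sites of the list it was present around 1.64%, and around 2.47% of those above 5.

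Exact repeats were rare at the length of a short read. In SON, the 30-mer tccatggactcccagatgttagcaaccagc occurs 4 times in tandem in exon 3 (chr21:33551629-33551748), and is shown because it is the unit of a tandem repeat in the coding exon. In all, 248 coding positions of SON (3.41%) were followed by 30 nt that occur more than once in its transcript, and 4 of the 58 PDCD4 coding sites and no IgG site lay on such positions. The transcripts of SRRM2 and SRRM1 held no repeated 30-mer. None of the exonic SRRM2 or SON sites was followed by 30 nt found in a transcript of another gene.

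SRRM2 exon 12 (chr16:2768997-2769284, 288 nt) stood apart from exon 11 next to it. It held 16 PDCD4 sites with 53 cDNAs, or 55.6 sites per kb, and 2 IgG sites with 4 cDNAs, or 6.94 per kb. The log2 ratio was 2.87 (1.72 to 5.09), against 0.80 (0.51 to 1.12) in exon 11. Of the 16 sites, 11 lay within 34 nt (chr16:2769156-2769189), with 31 cDNAs, and this was the largest group of PDCD4 sites in the 3 genes. The exon is 68.8% pyrimidine, compared with 51.7% for exon 11. Both windows printed above for exon 12 come from this pyrimidine-rich sequence, and 2 of its sites scored above 5. Exon 12 was picked out after its values were seen.

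The introns around it also held PDCD4 sites. Introns 9, 10, 11 and 12 of the chosen SRRM2 transcript, picked after their values were seen, held 41 PDCD4 sites with 116 cDNAs, against 6 IgG sites with 16 cDNAs (log2 ratio 2.22, 1.53 to 3.14). Intron 12 alone had 22 sites with 56 cDNAs against 4 with 10, and intron 11 had 6 sites with 26 cDNAs, 2 of them above 5, while no IgG site was listed there. The 10 other introns of SRRM2 held 2 PDCD4 sites.

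Many of these positions are exonic in other SRRM2 transcripts. Of the 43 PDCD4 sites in the introns of the chosen transcript, 26 lay in exons of noncoding SRRM2 transcripts, 11 in 3′ untranslated regions of other coding transcripts, and 6 in introns of every transcript. For the 8 IgG sites the numbers were 5, 1 and 2. Unspliced pre-mRNA and these annotated transcripts cannot be told apart from the position of a site. By contrast, the introns of SON and SRRM1, which are longer in sum (26051 and 26203 nt, against 9731 nt in SRRM2), held 10 and 4 PDCD4 sites against 6 and 4 IgG sites.

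**Figure D4:**
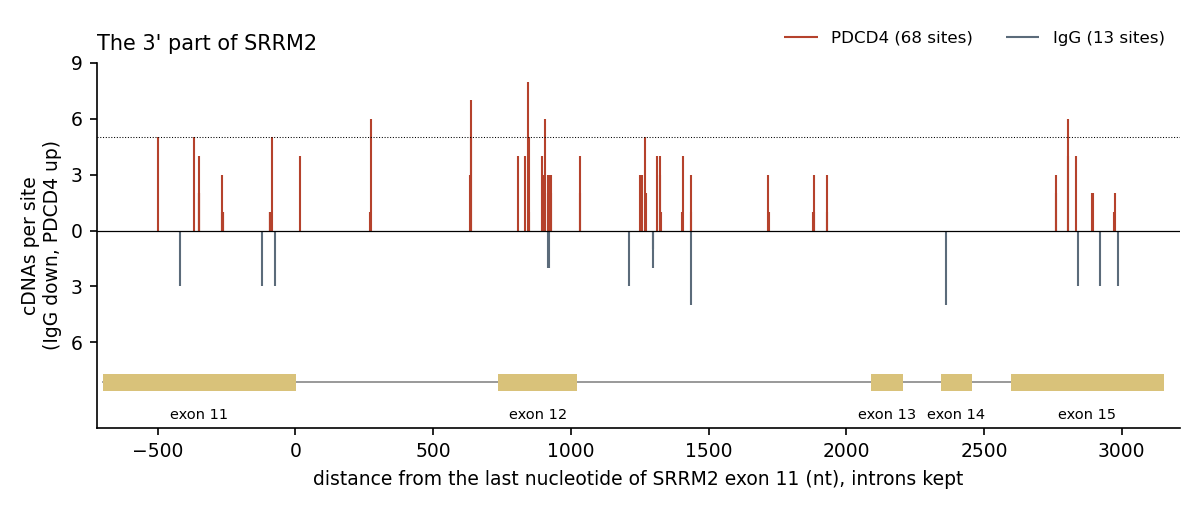
Listed sites in the 3′ part of SRRM2 with introns kept. The x axis is the distance in nt from the last nucleotide of exon 11, the height of a line is the cDNA count of a site (PDCD4 up, IgG down), boxes are exons of the chosen transcript, and the dotted line is a score of 5. PDCD4 sites crowd exon 12 and intron 12, where the IgG list has few.

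SRRM1 exon 15 was where that gene's strong sites lay. The exon held 7 PDCD4 sites with 35 cDNAs and scores of 5, 6, 6, 9, 3, 2 and 4 in order along the exon, against 2 IgG sites with a score of 2 each (log2 ratio 2.28, 1.08 to 4.52). All 7 fell between the 228th and the 313th nucleotide of the exon, and the 3 SRRM1 sites above 5 were among them. Exon 15 is the longest coding exon of SRRM1. Other genes, among them SRRM1P3 and PRNCR1, share sequence with SRRM1. For 8 of its 34 exonic PDCD4 sites and 2 of its 26 exonic IgG sites, the next 30 nt also occur in another gene. Of the 3 sites above 5, 2 were among these, and the site with score 9 was not.

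In SON the single site above 5 (chr21:33559596) lay in exon 6, 10 nt from the start of the exon, and its window therefore runs across the 3′ splice site. Exon 6 held 3 PDCD4 sites with 12 cDNAs and 1 IgG site with 3. SON exon 2 (167 nt) held 6 PDCD4 sites with 17 cDNAs, and no IgG site was listed there. PDCD4 sites were listed in 4 of the 12 exons of SON.

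The ends of exons were empty in both lists. In the last 60 nt of the 39 internal exons of the 3 genes (2286 nt) there was no PDCD4 or IgG site, whereas the rest of these exons held 233 PDCD4 sites (14.8 per kb) and 87 IgG sites (5.52 per kb). The first 50 nt of the same exons held 23 PDCD4 sites, or 14.4 per kb. The emptiness was general: over internal exons of 17900 genes, the density in the last 60 nt was 8.93% of that elsewhere in the exon for PDCD4 and 13.5% for IgG. How reads across exon junctions were handled is not given in the sources used here, and its part in this was not tested. Short exons could thus hold few sites in these lists.

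PDCD4 and IgG sites seldom fell on the same nucleotide. SRRM2 had 3 shared positions, SON had 2 and SRRM1 none, of 721 in the whole lists. The authors' methods describe removing IgG sites from the PDCD4 replicates before peak calling. The part of that step in the low numbers was not tested. For PDCD4 sites, near neighbours were more common in SRRM2, where 61 of 203 had an IgG site within 20 nt. The numbers were 5 of 70 in SON (7.14%) and 6 of 38 in SRRM1 (15.8%). Of the IgG sites, 51.6% in SRRM2, 50% in SRRM1 and 10.8% in SON had a PDCD4 site within 20 nt. These shares were not corrected for the density of sites. When sites within 20 nt were joined, the PDCD4 sites formed 87 groups in SRRM2, 47 in SON and 20 in SRRM1.

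Genes whose PDCD4 cDNAs were split over coding sequence, untranslated regions, noncoding exons and introns most like those of SRRM2 were RPL3, HSPD1, HSPA8, CHD3 and EEF2, among 792 genes with at least 100 PDCD4 cDNAs. The distance, the summed absolute difference of the shares divided by 2, ran from 0.10 to 0.12. For SON they were MKI67, PLEC, GAPDH, HSP90AA1 and AHNAK, with distances from 0.036 to 0.051. This likeness is over 1 pooled list. The genes compared entered by their PDCD4 cDNAs alone, which favoured ratios above 0, so the ratios are given as a description. Of the genes named, HSPA8 and CHD3 had log2 ratios whose interval held 0 (0.24 and 0.06). The other 8 ranged from 1.20 in MKI67, a proliferation marker of the chromosome surface, to 4.02 in HSPD1, a mitochondrial chaperonin.

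A long coding exon is not peculiar to the speckle genes. Of the genes with a coding exon of at least 3000 nt, 16 had 100 or more PDCD4 coding cDNAs, among them PLEC, AHNAK, SRRM2, FAT1, MKI67, DSP, MACF1, SON, DST, ANKRD11, CENPF, RNF213, NUMA1, AHNAK2 and SPEN. Their coding log2 ratios ran from 0.21 in SPEN to 5.03 in PLEC, the cytoskeletal linker plectin. SRRM2 had 1.01, and SON had 1.04 over the coding exons of the chosen transcript. These genes entered by their PDCD4 cDNAs alone, so ratios above 0 were favoured by the choice and are given as a description.

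Other speckle and RS-rich genes lay on both sides of 0. Of the 40 on the list, 37 had at least 20 cDNAs, 25 of these had a log2 ratio above 0, 5 were past a 2-fold higher share and 5 past a 2-fold lower one. The median was 0.15, against -0.10 over all genes tested. The share above 0 was 67.6%, against 46.2% of all genes tested, while the share past 2-fold higher was 13.5%, against 16.4%. Not corrected for length, SRRM2, with 583 PDCD4 cDNAs, had more than any gene of the list. The highest there were SRPK1 with 131 and SRPK2 with 107, the kinases that phosphorylate SR proteins. Per kb of spliced transcript the lead was small: SRRM2 had 1.57 PDCD4 cDNAs per 10000, against 1.33 in SNRNP70 and 1.29 in RSRC1.

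Among its genes with 100 or more cDNAs over both lists, a higher share in PDCD4 was found for BCLAF1, with 93 against 17 cDNAs (log2 ratio 1.82). ACIN1, of the exon junction complex, had 89 against 37 (0.68), RBM25 had 103 against 44 (0.64) and ARGLU1 had 71 against 30 (0.65). Values near 0 were found for RBM39 (0.13), SNRNP70 of the U1 particle (0.07), SCAF11 (0.05) and SRPK1 (0.02). The IgG share was the higher one in RSRC1, with 85 against 118 cDNAs (-1.04), in THRAP3, the partner of BCLAF1, with 87 against 101 (-0.78), in SCAF8 with 58 against 58 (-0.57) and in SRPK2 with 107 against 102 (-0.50).

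The SR factors, the classical splicing activators that gather in speckles, also lay on both sides of 0. Of 14 on the list, 12 had at least 20 cDNAs, 7 of these were above 0, 2 were past a 2-fold higher share and 3 past a 2-fold lower one, with a median of 0.07. The share above 0 was 58.3%, against 46.2% of all genes tested, and the share past 2-fold higher was 16.7%, against 16.4%. Past 2-fold lower were 16.1% of all genes tested. The 1 gene among them with 100 or more cDNAs, SRSF11, had 135 PDCD4 and 86 IgG cDNAs (0.08). Per kb of spliced transcript it had 1.92 PDCD4 cDNAs per 10000, more than SRRM2 with 1.57.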

How the data were processed

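The deposited values were counts: each line was a 1-nt crosslink site with a gene label and a score, a whole number of cDNAs. The authors made these with iCount on the Ensembl release 88 genome (GRCh38), grouping the 2 replicates of each antibody and calling peaks at a false discovery rate of 5%. Their methods describe removing IgG sites from the PDCD4 replicates and keeping scores above 5. The deposited lists still hold scores from 1 and 721 shared positions. The iCount version and alignment settings are not given in the sources used here.

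Sites were placed on GENCODE release 44 (same build, later release) in the order coding, 3′ UTR, 5′ UTR, noncoding exon, intron, on the same strand. Exons and codons came from the transcript with the longest coding sequence. Ratios added 1 cDNA to each sum. Analysis used Python 3.11.15, pandas 2.3.3 and scipy 1.17.1, and the ratio and region steps were tested on simulated data. The 3 genes and the gene lists were chosen with earlier results of these data known. Named genes were the members, list genes with at least 100 cDNAs over both lists, the 5 genes nearest in region split, and genes with a long coding exon; some that met this rule are not reported here. Sequences were read from GRCh38.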

Additional observations from a re-analysis of the deposited data

How the results depend on the processing

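Of 57 alternatives to 13 values, 43 left the value within its 95% interval (or, for a count, within 1.5 times) and 14 moved it, and none turned the sign of a log2 ratio whose interval lay away from 0. With scores above 5 only, the log2 ratios were 4.44 in SRRM2, 2.50 in SRRM1 and 1.04 in SON, all set by the added cDNA because no IgG site was listed. At that threshold the coding share was 100% in SRRM1 (3 sites) and SON (1 site), the density ratio of SRRM2 exon 11 was -1.52, and arginine and serine codons held 30% of the SRRM2 sites and 0% of the SON site. By number of sites the log2 ratios were -0.18 in SRRM1 and 0.39 in SON, and both intervals held 0 (-0.90 to 0.57 and -0.19 to 1.02). Leaving exon ends out gave -1.01 for the SRRM2 density. With introns placed before coding sequence, the coding share was 63.5% in SRRM2 and 12.9% in SON, since a position then counts as intronic wherever any transcript has an intron. A minimum of 50 cDNAs left 540 genes past 2-fold of 3972, and no minimum gave 3974 of 14416, against 1197 of 7305. Leaving out SRRM1 sites with sequence shared by another gene, an alternative chosen after seeing the data, gave a whole-gene log2 ratio of 0.01. Scores above 10 gave no value, since no site of the 3 genes had one, and scores above 5 gave no density for SON or SRRM1. No paired analysis was possible because the replicates of each antibody were merged into 1 list, which also kept replicates from being left out in turn. Depth limits the short exons most, with sums often under 10 cDNAs.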
